A study of Mus musculus with 11 samples.

Results

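Mammosphere cells cultured from sorted mammary basal cells were compared with the freshly sorted basal cells by RNA-seq, using the 1 library labelled Mammosphere and the 3 libraries labelled Basal out of 11 libraries of the series. Of the 27179 genes in the count tables, the 15876 above 0.5 CPM (reads of a gene scaled to library size) in at least 1 of these 4 libraries were compared, so that genes read in the culture alone were included. Both groups were labelled as wild type FVB/N mammary gland from virgin females aged 8 weeks. The Basal group was the CD24+CD29hi fraction, sorted by flow cytometry, which contains mammary stem cells (MaSC), myoepithelial cells and other basal cells. The Mammosphere group was grown from CD24+CD29hi cells for 1 week on ultra-low adherence plastic in medium with EGF, bFGF, insulin, hydrocortisone and B27. The labels tie no Basal library to the cells that were cultured, and growth in suspension, the medium, cell loss during culture and cell handling cannot be told apart, and fewer cells of a type cannot be told apart from less RNA per cell. More than 1 culture may stand behind the Mammosphere library, judged by its title, and the title of Basal replicate 1 mentions p53 although its label gives the wild type.

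The mammary duct is a bilayer. Its outer, basal layer holds the contractile myoepithelial cells, which squeeze milk out in response to oxytocin, produce the basement membrane and carry the keratins 5 and 14 with the transcription factor p63. Its inner, luminal layer carries keratins 8 and 18 and seals the lumen with tight junctions. Mammary epithelium belongs with the skin's epithelia, in which keratinocytes that leave the basement membrane build a cornified envelope of cross-linked proteins and are shed when kallikrein proteases cut their junctions. A mammosphere is a ball of cells that survived and grew without attachment.

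The Mammosphere library held 38388464 counted reads and the Basal libraries held 57160817, 51368625 and 55086324 reads. With 1 library in the Mammosphere group there is no replicate check on that side and no p-value is given. A gene was called higher or lower when its log2 CPM differed from the Basal mean by more than 1 and when the gap to the nearest Basal library was wider than the range of the Basal libraries themselves. By this rule 3147 genes were called higher (19.8% of the genes compared) and 2836 were called lower (17.9%), and these shares are the background for each count given here. The median difference over all genes was 0.03 and the median SD of a gene among the Basal libraries was 0.24, both on the log2 CPM scale. Large differences were more often upward, with 289 called genes higher and 113 lower by more than 5 log2 units. Genes called higher took 25.8% of the reads of the Mammosphere library and 4.76 ± 0.056% of those of the Basal libraries (SD, n = 3), while genes called lower took 10.1% and 35.0 ± 1.32%. The plot of all genes shows these differences against the Basal level. In what follows, CPM values scaled by TMM are given for the Mammosphere library first and then for Basal replicates 1, 2 and 3 in that order, and differences are log2 CPM of Mammosphere minus the Basal mean.

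**Figure D1:**
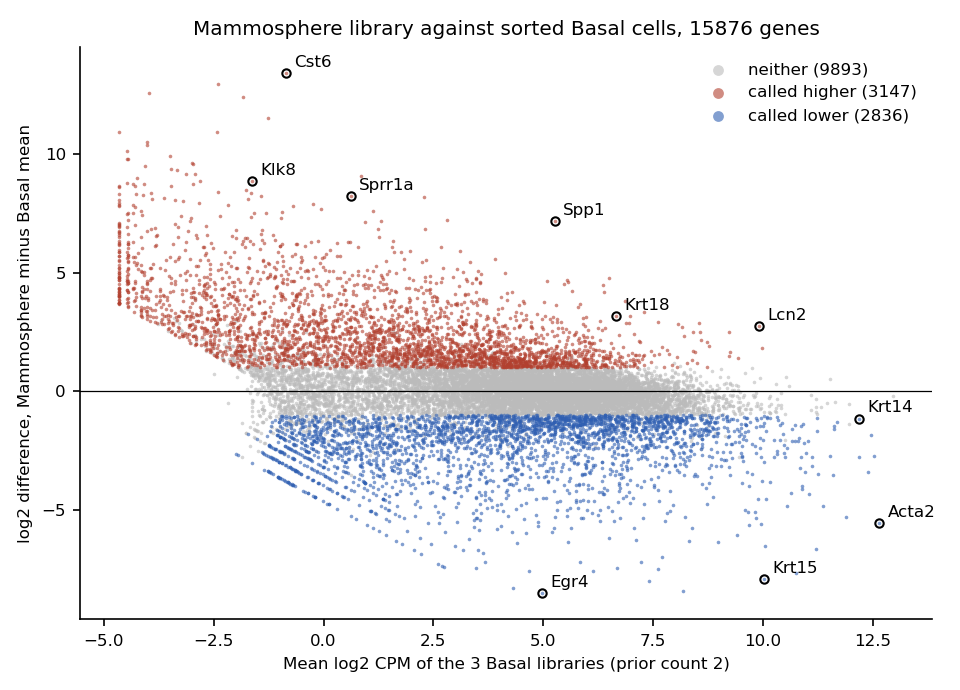
Each point is 1 of 15876 genes, with the mean log2 CPM of the 3 Basal libraries on the x axis and the log2 difference of Mammosphere minus Basal on the y axis. The 3147 genes called higher are red, the 2836 called lower are blue and the other 9893 are grey, with *Cst6* at 13.42 and *Acta2* at -5.56.

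The 4 genes that mark the comparison separated the culture from every Basal library. *Acta2*, smooth muscle actin (chromosome 19, 34240336 to 34255585, GRCm38), had 136 CPM in the Mammosphere library and 5232, 7661 and 6592 CPM in the Basal libraries. It was lower by a log2 difference of -5.56 (SD among Basal libraries 0.28). *Krt18*, a luminal keratin (chromosome 15, 102028216 to 102032026), had 901 CPM in the Mammosphere library and 82.4, 142 and 87.5 CPM in the Basal libraries, a difference of 3.16 (SD 0.43). The other markers belong to stratified epithelia such as epidermis. *Sprr1a*, a small proline-rich protein of the cornified envelope (chromosome 3, 92483954 to 92485881), had 466 CPM in the Mammosphere library and 1.73, 1.25 and 1.57 CPM in the Basal libraries, a difference of 8.24 (SD 0.23). *Klk8*, a secreted kallikrein protease (chromosome 7, 43797532 to 43803826), had 151 CPM in the Mammosphere library and 0.301, 0.161 and 0.464 CPM in the Basal libraries, a difference of 8.85 (SD 0.66). The Basal libraries matched their label, with *Krt5*, *Krt14* and *Trp63* at 3084, 3488 and 2928 CPM, 4293, 4984 and 4774 CPM and 348, 462 and 225 CPM. In the Mammosphere library these basal markers were still present, at 1048, 2098 and 107 CPM, and each was called lower.

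The contractile programme of myoepithelial cells was almost uniformly lower. Of 20 genes listed, 18 were called lower and 1 higher, with a median of -2.56 against 0.03 for all genes. Summed over the list, the level was 4074 CPM in the Mammosphere library and 23829, 35340.5 and 28974 CPM in the Basal libraries. *Myh11*, the smooth muscle myosin heavy chain, had 96 CPM against 2922, 4664 and 3952 CPM, a difference of -5.30. *Tagln*, the actin-binding protein transgelin, had 93 CPM against 2249, 3530.2 and 2271 CPM (-4.82), and *Actg2*, the enteric smooth muscle actin, had 7.07 CPM against 201, 289.6 and 226 CPM (-5.05). For each of them all Basal libraries lay far above the culture, with no overlap. *Mylk*, the kinase that switches on smooth muscle myosin, and *Myl9*, the light chain it acts on, differed by -4.54 and -4.53. *Oxtr*, the oxytocin receptor, had 97.1 CPM against 298, 735 and 256 CPM. It lay below each Basal library but was not called, because the Basal libraries themselves ranged too widely. *Myocd*, the cofactor that drives smooth muscle genes, was at the low level of 0.35 CPM against 1.19, 2.3 and 1.39 CPM. The exception was *Des*, the muscle intermediate filament desmin, with 29.7 CPM against 4.12, 6.46 and 4.46 CPM (2.58). In culture, 17 of the 20 genes were still above every sorted luminal library of the series (TMM over all 11 libraries).

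Genes that define the basal cell were lower in part. Of 25 basal identity genes, 17 were called lower, 1 was called higher and 7 were neither, with a median of -1.90. The largest difference was in *Krt15*, a keratin of basal keratinocytes and hair follicle stem cells, which had 4.27 CPM against 1315, 990.2 and 868 CPM (-7.92). *Lgr5*, the R-spondin receptor of adult stem cells, had 5.79 CPM against 64, 113 and 71.8 CPM (-3.79), and *Tbx2*, a T-box factor, had 2.96 CPM against 47, 35.6 and 29.7 CPM (-3.61). *Wnt10a* (-4.10), the cadherin gene *Cdh3* (-2.63) and the hemidesmosome collagen gene *Col17a1* (-2.63) were also called lower. *Trp63*, the master regulator of stratified epithelia, differed by -1.63. Among the genes not called were *Itgb1*, which encodes the CD29 used for sorting, with 1309.5 CPM against 1346, 1217 and 1539 CPM, and *Itgb4*, with 221 CPM against 215, 296 and 226 CPM. *Vim* (321 CPM against 295, 488 and 327 CPM) and *Krt17* (1979.9 CPM against 2559, 2923 and 2959 CPM) were not called either. The gene called higher was *Tspan8*, a tetraspanin, with 40.1 CPM against 13.1, 16.4 and 15.2 CPM (1.43).

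The basement membrane, which basal cells secrete and rest on, was represented by 20 genes, of which 12 were called lower and none higher (median -1.39). *Lama1*, the alpha chain of laminin-111, had 11.6 CPM against 1123, 1037 and 1014 CPM (-6.51). The chains of type IV collagen *Col4a1* and *Col4a2* had 667 CPM against 4453, 4589 and 4824 CPM and 443 CPM against 2905, 3025 and 2959 CPM, differences of -2.79 and -2.74. *Col7a1* (-2.78), the anchoring fibril collagen, *Dst* (-2.76), a hemidesmosome plakin, and *Fbln1* (-2.63) were the others with the largest differences. *Lama3*, a laminin chain, was called lower (-2.05), whereas *Lamb3*, another, had 789 CPM against 796, 1015 and 902 CPM and was not called. *Itga3*, an integrin chain that binds laminin, had 721 CPM against 705, 635 and 739.8 CPM.

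**Figure D2:**
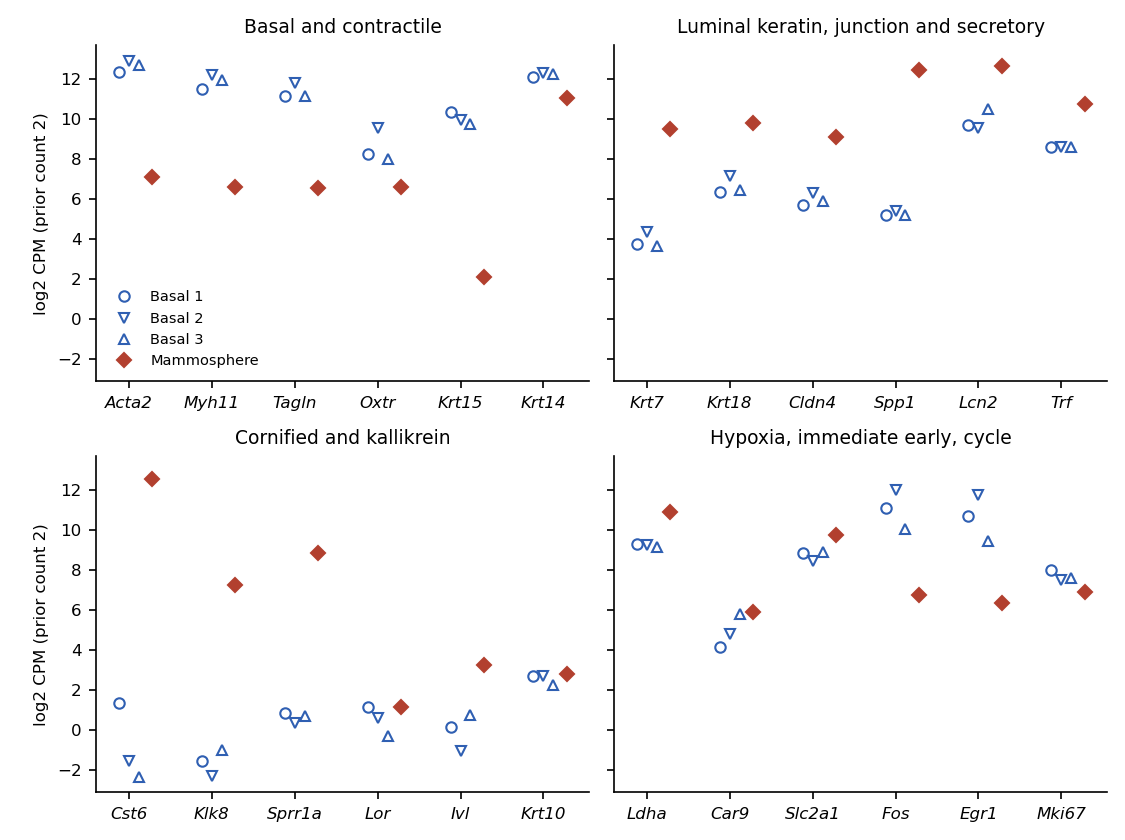
The log2 CPM (prior count 2) of 24 genes is shown in each Basal library (blue, 1 symbol per replicate) and in the Mammosphere library (red). *Acta2*, *Myh11*, *Tagln* and *Krt15* lie far below, and *Krt7*, *Spp1*, *Cst6*, *Klk8* and *Sprr1a* far above all 3 Basal libraries, while *Krt10*, *Lor* and *Car9* lie within or close to them.

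The keratins, the intermediate filaments of epithelia, differed in makeup. Of 54 keratin genes, 29 passed the filter, and 9 of these were called higher, 12 lower and 8 neither. Summed as RPKM, reads scaled to exon length and library size so that genes can be compared, keratin transcripts reached 5913 in the Mammosphere library and 7324 ± 402 in the Basal libraries (SD, n = 3). The makeup of that pool differed. *Krt14* supplied 21.4% against 38.5 ± 1.44% of it, *Krt5* 8.09% against 19.7 ± 1.05% and *Krt15* 0.042% against 8.45 ± 2.17%. Luminal keratins supplied more in culture, with 10.9% against 1.0 ± 0.259% for *Krt18*, 7.6% against 2.72 ± 0.215% for *Krt8*, 7.55% against 0.131 ± 0.0285% for *Krt7* and 4.18% against 0.962 ± 0.106% for *Krt19*. *Krt6a*, a keratin of wounded and hyperproliferative epidermis, supplied 9.08% against 0.282 ± 0.0361%. *Krt17*, which accompanies it in wounds, supplied 22.2% against 25.4 ± 1.53% and had the highest RPKM of the keratins in culture.

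Per library, *Krt6a* had 1213 CPM against 44.4, 43.3 and 52 CPM (4.71), *Krt6b* had 243 CPM against 3.52, 2.28 and 3.17 CPM (6.35) and *Krt7* had 708 CPM against 13.3, 20.1 and 12.5 CPM (5.56). *Krt78* (5.46), *Krt79* (5.52) and *Krt80* (3.73), type II keratins of differentiating surface epithelia, were called higher with *Krt8* (1.18) and *Krt19* (1.82). Of these, *Krt79* varied most among the Basal libraries, with 229 CPM against 11.7, 5.35 and 1.93 CPM. *Krt1* and *Krt2*, keratins of suprabasal epidermis, had 0.28 and 0 CPM in culture and did not pass the filter. *Krt10*, the partner of keratin 1, had 6.82 CPM against 6.51, 6.34 and 4.66 CPM and was not called. The keratins called lower beside *Krt5*, *Krt14* and *Krt15* were *Krt23* (-2.21), *Krt42* (-3.49) and 7 keratins at low level, *Krt28*, *Krt32*, *Krt71*, *Krt73*, *Krt75*, *Krt83* and *Krt84*, several of which build the hair follicle and its inner root sheath. *Krt71* had 0.163 CPM against 6.08, 5.97 and 5.33 CPM, and *Krt28* had 0 reads in culture against 152, 95 and 74 reads, at least 28.7-fold lower taking 3 reads as the floor of the culture library. *Krt16* (0.83), *Krt4* (-0.42), *Krt9* (-0.85), *Krt20* (-0.69), *Krt87* (0.78) and *Krt90* (-1.37) were not called. The other 25 keratins were below the filter.

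Luminal keratin and junction genes were higher as a group. Of 30 genes, 20 were called higher and none lower, with a median of 2.07. *Ehf*, an ETS factor of luminal epithelium, had 429 CPM against 6.93, 5.53 and 6.65 CPM (6.07). Several tight junction genes were among them. *Cldn1*, *Cldn3*, *Cldn4* and *Cldn7*, which encode claudins, had differences of 4.83, 4.11, 3.12 and 3.80. *Cgn* (cingulin, 5.0), *Tjp3* (4.33) and *Ocln* (occludin, 4.16) were also called higher, occludin with 49.8 CPM against 2.23, 2.62 and 3.56 CPM, while *F11r*, which encodes the junctional protein JAM-A, had 309.6 CPM against 215, 214 and 175 CPM and was not called. Of 15 claudin genes that passed the filter, 9 were called higher, 5 neither and 1 lower, and 2 of them passed through the Mammosphere library alone. The list also held 10 genes that were not called. Among them *Cdh1*, E-cadherin, had 482 CPM against 367, 303 and 491 CPM, *Epcam* had 739 CPM against 609, 512 and 711 CPM and *Grhl2* had 113 CPM against 117, 131 and 110.1 CPM.

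The sorted luminal progenitor (LP) and mature luminal (ML) libraries of the same series, 3 each, give a scale for these levels (TMM over all 11 libraries). Of the 30 luminal keratin and junction genes, 20 lay above each Basal library and below each LP and ML library, and 0 lay above all luminal libraries. *Krt18* had 862 CPM in the Mammosphere library, with 101 ± 33.8 for the Basal, 3433 ± 498 for the LP and 3317 ± 154 for the ML mean. *Krt8* had 776 CPM in the Mammosphere library, with 351 ± 52.6 for the Basal, 4139.6 ± 663 for the LP and 4385 ± 469 for the ML mean, so that the culture reached 18.7% of the LP mean. *Cldn4* had 521 CPM in the Mammosphere library, with 61.9 ± 14.6 for the Basal, 2517 ± 586 for the LP and 3329 ± 572 for the ML mean. *Krt7* lay above the LP and below the ML libraries, with 677 CPM in the Mammosphere library, with 14.9 ± 4.31 for the Basal, 285 ± 88.7 for the LP and 902 ± 135 for the ML mean, and *Ehf* had 410.4 CPM in the Mammosphere library, with 6.18 ± 0.622 for the Basal, 381 ± 125 for the LP and 141 ± 18.4 for the ML mean. These values are set side by side without a test, since the Basal libraries are shared.

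**Figure D3:**
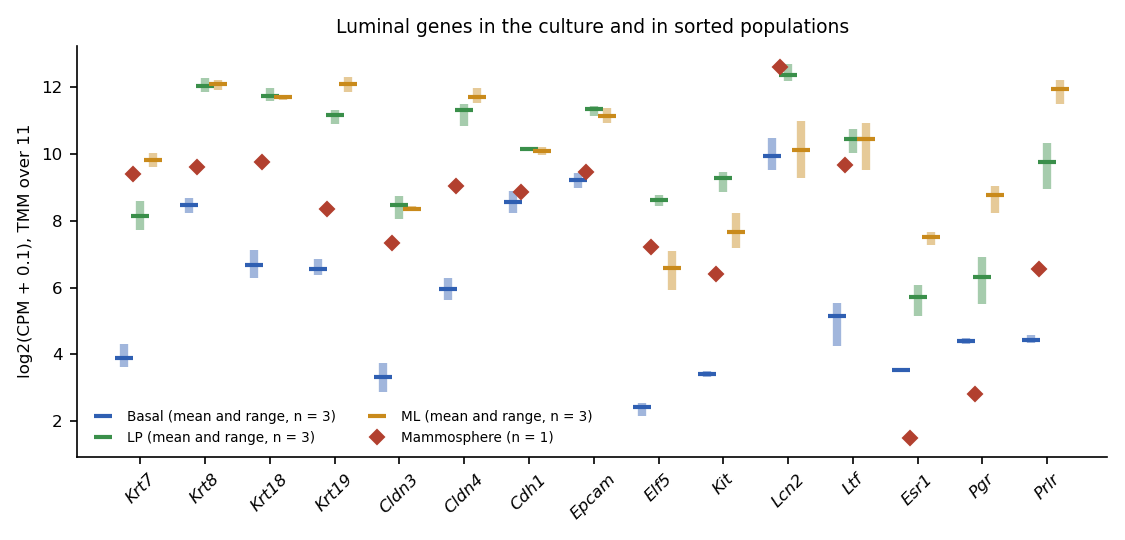
Levels of 15 luminal genes are given as log2(CPM + 0.1) on the scale of all 11 libraries, with bars for the range and dashes for the mean of the 3 Basal (blue), LP (green) and ML (orange) libraries and a red diamond for the Mammosphere library. The diamonds of *Krt8*, *Krt18*, *Krt19* and *Cldn4* lie between the Basal and the luminal ranges, that of *Lcn2* lies in the LP range, and those of *Esr1* and *Pgr* lie below all other groups.

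Luminal progenitor genes were mixed. Of 22 that passed the filter, 11 were called higher and 3 lower. Higher genes included secreted defence proteins. *Lcn2*, the iron-siderophore binding lipocalin, had 6465 CPM against 822, 747 and 1464 CPM (2.74) and ranked first per length among transcripts of nuclear genes in culture, with ribosomal protein genes and unnamed gene models left out, at 7579 RPKM against 1185 ± 462 RPKM in the Basal libraries. *Ltf*, lactoferrin, had 854 CPM against 19.8, 40.6 and 47.7 CPM (4.66). *Elf5*, the ETS factor of alveolar progenitors, had 155 CPM against 5.78, 5.85 and 4.54 CPM (4.84), and *Kit*, the stem cell factor receptor by which luminal progenitors are known, had 88.7 CPM against 11.3, 11.4 and 10.1 CPM (3.01). On the 11-library scale *Elf5* reached 37.3% and *Kit* 13.7% of their LP means. The milk protein genes went apart, since *Csn3*, kappa-casein, had 1163 CPM against 45, 44.8 and 52.5 CPM (4.62) and *Wfdc18* 295 CPM against 7.08, 7.59 and 10.4 CPM (5.16), whereas *Csn2*, beta-casein, had 2.19 CPM against 26.1, 17.1 and 22.3 CPM (-3.27). *Cyp24a1* (-1.68) and *Tnfrsf11a* (-1.58), the RANK receptor gene, were the others called lower.

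The hormone-sensing programme was mixed. Of 17 genes, 6 were called higher and 6 lower. *Esr1*, the oestrogen receptor, had 2.85 CPM against 11.7, 11.5 and 12.4 CPM (-2.04), *Pgr*, the progesterone receptor, had 7.31 CPM against 22.3, 22.6 and 20.6 CPM (-1.57), and *Cited1*, *Areg* and *Wnt4* were called lower with them (-2.35, -1.31 and -1.14). *Prlr*, the prolactin receptor, was higher with 98 CPM against 24.8, 20.8 and 21 CPM (2.15), still 2.37% of the ML mean. *Ly6d*, a surface protein also known from stratified epithelia, had 565 CPM against 4.71, 5.81 and 4.35 CPM (6.83). *Foxa1*, *Stc2*, *Ly6a* and *Cited4* were the others called higher. On the 11-library scale they had 9.82, 65.0, 76.2 and 29.1 CPM in culture, with Basal means of 4.90, 9.08, 10.7 and 0.807 CPM.

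Genes of cornification were higher by large amounts. Of 65 cornified envelope and keratinocyte differentiation genes, 50 passed the filter, and 39 of these were called higher and 2 lower. Since 23 of the 50 passed the filter through the Mammosphere library alone, they had to be higher. Among the 27 that also passed in a Basal library, 16 were called higher, and 2 of the 65 had no read in any of the 4 libraries. *Cst6*, cystatin M/E, an inhibitor of the proteases that act on the cornified layer, had 6042 CPM against 2.49, 0.303 and 0.155 CPM (13.42), and at 1529 RPKM it ranked high among all transcripts of the culture. *Asprv1*, the retroviral-like protease that processes filaggrin, had 1450.2 CPM against 5.08, 5.39 and 4.21 CPM (8.21). *Sbsn* and *Dmkn*, secreted proteins of the upper epidermis whose genes are neighbours, had 422 CPM against 2.05, 1.82 and 2.59 CPM and 362 CPM against 2.46, 1.8 and 3.3 CPM. *Krtdap* (9.56) and *Sprr1b* (9.36) completed the leading members, with *Scel* (8.41) and *Lce1a1*, which had 667 reads in culture and 0 in the Basal libraries, at least 257-fold higher taking 3 reads per Basal library as the floor.

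Other genes of this list were not all higher. *Lor*, loricrin, had 2.15 CPM against 2.18, 1.45 and 0.773 CPM and was not called, as with *Krt10*. *Ivl*, involucrin, was called higher with 9.5 CPM against 1.06, 0.444 and 1.66 CPM (3.30), and *Flg*, filaggrin, had 6.7 CPM against 0, 0 and 0.0193 CPM (7.21). The plakins *Ppl* (479 CPM against 33.7, 29.6 and 59.4 CPM) and *Evpl* (93.2 CPM against 5.62, 7.37 and 4.89 CPM), which scaffold the envelope, were called higher by 3.62 and 3.98. The desmosomal cadherin gene *Dsg3* had 246 CPM against 11.7, 6.05 and 15.4 CPM (4.57). *Tgm1*, the transglutaminase that cross-links the envelope, had 33.6 CPM against 58.5, 43 and 65.9 CPM and was not called. The members called lower were *Sfn*, stratifin, with 246 CPM against 2090.0, 2038 and 2525 CPM (-3.16), and *Aloxe3*, a lipoxygenase of the skin barrier, with 1.63 CPM against 4.12, 3.96 and 7.42 CPM (-1.58). In the sorted luminal libraries, 36 of the 50 genes had lower values than the culture in each LP and each ML library. This result was favoured by the choice of genes, since 23 of the 50 had been kept for their level in the culture alone.

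Many of these genes lie side by side in the epidermal differentiation complex on chromosome 3, between *S100a1* and *S100a10* (90511034 to 93564645, GRCm38). Of 67 protein-coding genes of the complex in the tables, 47 passed the filter, and 39 were called higher, none lower and 8 neither, with 32 of the 47 over the filter in the Mammosphere library alone. Of the 15 that also passed in a Basal library, 7 were called higher. The complex took 0.287% of the reads in culture and 0.103 ± 0.00696% in the Basal libraries (SD, n = 3). *Crct1* led it, with 391 CPM against 0.124, 0 and 0 CPM (12.58), followed by *Kprp* with 40.7 CPM against 0, 0.0202 and 0 CPM (9.80). The 16 late cornified envelope (*Lce*) genes and the 6 small proline-rich genes that passed the filter were called higher, but 16 and 5 of them passed through the Mammosphere library alone and had to be. Some genes near its ends were not. *S100a1*, *S100a13*, *S100a16* and *S100a3* near the start, and *S100a10*, *S100a11* and the hair gene *Tchh* near the end, were among the 8 not called, together with *Lor*. Reads of the near-identical *Sprr2* and *Lce1* copies can have been lost or split in counting, so their single values are uncertain.

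**Figure D4:**
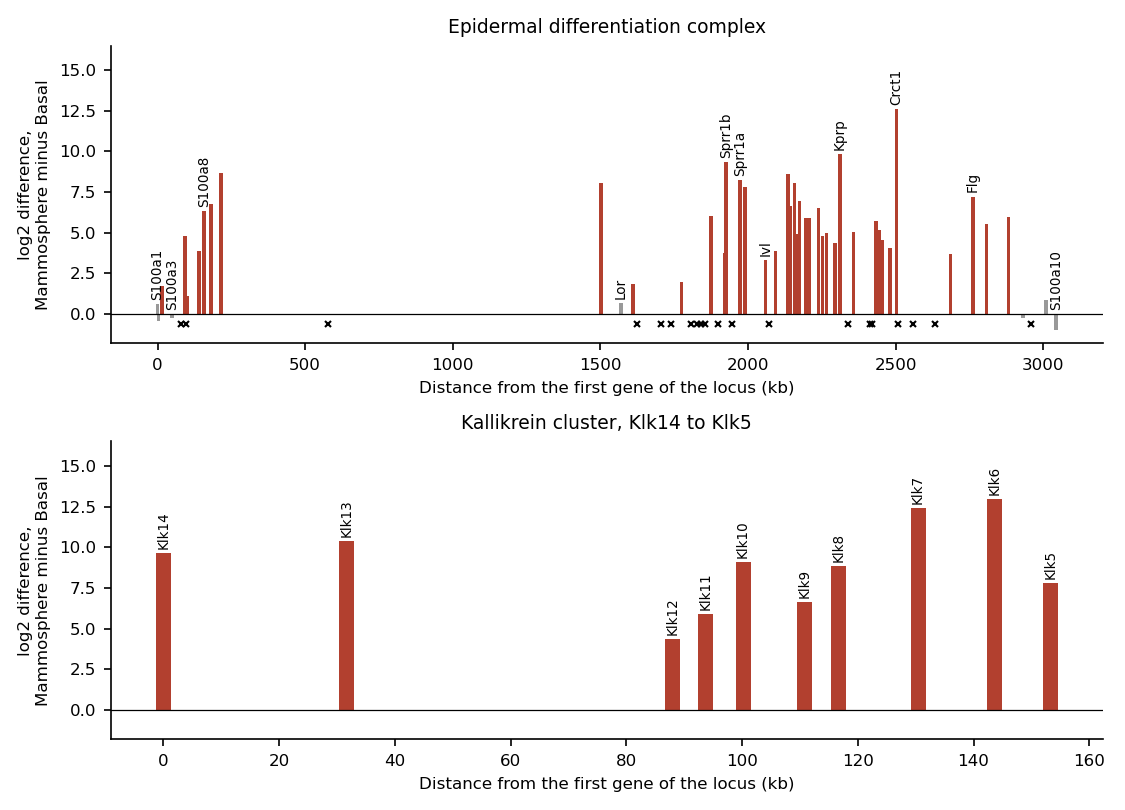
Bars give the log2 difference of Mammosphere minus Basal of each gene by its distance in kb from the start of the locus, red where called higher and grey where not called, and crosses mark genes below the filter. In the epidermal differentiation complex (top) 39 of 47 genes are red, 32 of the 47 having passed the filter through the Mammosphere library alone, and in the kallikrein cluster (bottom) all 10 are red, 6 of them having passed in that way.

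The DNA just before the start sites of many of these genes held the same short motif. The AP-1 motif TGANTCA, bound by FOS and JUN proteins and read the same way on both strands apart from its middle base, was searched in the 250 bases before each RefSeq start. It was found in 47.2% of 53 windows of the cornified list (21 of the 46 genes with a window) and in 6.75% of all 32851 windows. For all genes called higher the share was 7.01%, and for those called lower 5.49%. Some windows of 1 gene overlap, so they are not independent, and a match is a description of the letters and not a binding site. The windows of *Sprr1a* (chr3:92485882-92486131, minus strand, GRCm38.p6) and *Ivl* (chr3:92573736-92573985, minus strand), a marker of this comparison and a classical envelope gene, are shown from 250 bases upstream to the start site, with the motif in capitals.
Sprr1a: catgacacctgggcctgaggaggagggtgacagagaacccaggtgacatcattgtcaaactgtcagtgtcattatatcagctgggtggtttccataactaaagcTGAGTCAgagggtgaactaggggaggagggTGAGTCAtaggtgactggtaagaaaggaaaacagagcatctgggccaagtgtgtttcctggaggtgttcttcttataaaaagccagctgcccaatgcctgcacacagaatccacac
Ivl: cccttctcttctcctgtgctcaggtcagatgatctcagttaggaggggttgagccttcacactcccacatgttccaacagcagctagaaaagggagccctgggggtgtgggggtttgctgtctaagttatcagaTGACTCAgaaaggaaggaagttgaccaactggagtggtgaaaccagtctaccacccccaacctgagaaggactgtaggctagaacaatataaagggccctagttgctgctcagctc
*Sprr1a* had the motif at positions -146 and -116 from its start and *Ivl* at -116. The *Fos* and *Jun* transcripts themselves were lower in culture, as given with the immediate early genes. AP-1 protein and binding were not measured, and a part of AP-1 in these differences was not tested.

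The kallikreins, serine proteases that cut desmosomes as cornified cells are shed, differed by some of the widest margins. In a stretch of chromosome 7 from *Klk14* to *Klk5* (43680880 to 43851181), all 10 genes were called higher, with differences from 4.34 to 12.96, and 4 of them passed the filter in a Basal library. Of these, *Klk6* and *Klk7* passed there through Basal replicate 1 alone. *Klk11* also passed through 1 Basal library, with Basal values from 0.24 to 1.03 CPM (TMM over all 11 libraries). *Klk10* was over the filter in each Basal library. Together the 10 genes took 0.491% of the reads in culture and 0.00036 ± 0.00018% in the Basal libraries (SD, n = 3). *Klk6* had 1511 CPM against 0.796, 0.0202 and 0.0966 CPM (12.96), *Klk7*, which cleaves corneodesmosin, had 1511 CPM against 0.831, 0.0605 and 0.213 CPM (12.39) and *Klk10* had 989 CPM against 2.23, 0.908 and 2.76 CPM (9.09). *Klk13* (10.38), *Klk14* (9.64) and *Klk8* followed. *Klk5*, the activator of the cascade in skin, was present at 377 reads in culture and 0 in the Basal libraries, at least 145-fold higher. In the adjoining stretch from *Klk4* to *Klk1* (43881160 to 44229622), which holds the tissue kallikrein genes, none of 16 genes passed the filter and 11 had no read in the 4 libraries.

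Of the inhibitors in the list that passed the filter, 1 of 3 was called higher. *Spink5*, whose product LEKTI inhibits KLK5 and KLK7, had 1219 CPM against 0.92, 0.202 and 0.271 CPM (11.52), and *Cdsn*, corneodesmosin, had 365 CPM against 0.301, 0.121 and 0.0773 CPM (10.94). *Slpi*, a secreted leukocyte protease inhibitor of many epithelia, had 394 CPM against 614, 614 and 602 CPM, and *Serpina3n*, a serpin, had 256 CPM against 484, 324 and 881 CPM. Both lay below each Basal library and were not called. The motif TGANTCA was found in 1 of 16 windows of the kallikrein and inhibitor genes (6.25%). Basal replicate 1 was the 1 Basal library of the same library batch as the Mammosphere library. It had more reads than the other Basal libraries for *Cst6*, *Klk6*, *Klk7*, *Spink5*, *Cdsn* and *Crct1*. This was not so for *Klk10*, *Klk13*, *Klk14* and *Krtdap*. Basal replicate 1 held 141 *Cst6* reads against 15 and 8, and 45 *Klk6* reads against 1 and 5. It held 47 *Klk7* reads against 3 and 11, 52 *Spink5* reads against 10 and 14, and 17 *Cdsn* reads against 6 and 4. The source of these reads was not tested. Within that batch the difference was 11.22 for *Cst6* and 10.82 for *Klk6*.

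Hypoxia response and glycolysis genes were higher almost throughout. Of 32 genes, 27 were called higher and none lower, with a median of 2.0, and every member passed the filter in the Basal libraries too. Summed, the list reached 19326 CPM in the Mammosphere library and 4799, 4451 and 5240.0 CPM in the Basal libraries. *Slc16a3*, the lactate exporter MCT4, had 437 CPM against 8.86, 10.7 and 10.9 CPM (5.43). *Bnip3*, a mitophagy receptor, had 238 CPM against 6.37, 8.48 and 5.12 CPM (5.18), and *Egln3*, the prolyl hydroxylase PHD3 that is itself a target of HIF, had 1015 CPM against 44.8, 52.9 and 36.1 CPM (4.52). *Ankrd37* (5.07), *P4ha2* (4.74) and *Pdk1* (3.36), which diverts pyruvate from mitochondria, were also called higher. Enzymes of the glycolytic path were among the called genes. *Pgk1* (3.29), *Tpi1* (2.87), *Pkm* (2.51), *Aldoa* (2.51), *Eno1* (2.11) and *Ldha* (1.67) were each called, *Ldha*, lactate dehydrogenase A, with 1926 CPM against 625, 614 and 572 CPM. *Hk1*, *Hk2* and *Slc2a3* were not called. *Car9*, carbonic anhydrase IX, had 59.5 CPM against 17.4, 27.6 and 55.6 CPM, where Basal replicate 3 came close to the culture. *Gapdh* had 12 CPM against 5.78, 3.88 and 7.85 CPM, a level that its many processed copies in the genome make uncertain. In the sorted luminal cells, 29 of the 32 genes were below the culture in every LP and ML library.

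The core of the hypoxia response element, ACGTG on either strand, was found in 48.8% of 43 promoter windows of this list (18 of 29 genes with a window) and in 16.6% of all windows, with 18.1% for genes called higher and 17.6% for genes called lower. The 250 bases before the upstream start of *Ldha* (chr7:46845554-46845803, plus strand, GRCm38.p6) are shown because they hold the core 3 times over, with each stretch that matches on 1 strand or both in capitals.
Ldha: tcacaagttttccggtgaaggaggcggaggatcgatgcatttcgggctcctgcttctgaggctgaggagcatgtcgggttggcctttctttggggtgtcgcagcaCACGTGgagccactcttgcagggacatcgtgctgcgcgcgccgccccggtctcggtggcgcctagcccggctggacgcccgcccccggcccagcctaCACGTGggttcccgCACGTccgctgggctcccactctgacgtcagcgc
The stretches begin at -145, -48 and -34 from the start.

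Immediate early genes, which respond within minutes to serum, growth factors or tissue dissociation, were lower. Of 24 immediate early and heat shock genes, 17 were called lower and none higher (median -2.76). *Fosb* had 23.7 CPM against 2375, 3456 and 1581 CPM (-6.63), *Nr4a1* had 16.3 CPM against 1082, 1408 and 361 CPM (-5.64) and *Atf3* had 20.5 CPM against 1183, 1466 and 554 CPM (-5.58). The sum over the list was 2752 CPM in the Mammosphere library and 19551, 28734 and 11212 CPM in the Basal libraries. The Basal libraries differed more for these genes than for others, replicate 2 being highest and replicate 3 lowest for *Fos* (105 CPM against 2175, 4049.8 and 1055 CPM) and *Egr1* (81.6 CPM against 1656, 3452 and 700.1 CPM). *Jun* (-2.37), *Socs3* (-4.01), *Zfp36* (-3.79) and *Dusp1* (-3.42) were called lower too. The 4 heat shock genes of the list were not called, with differences of -1.99 for *Dnajb1*, which lay below each Basal library, -0.71 for *Hspa1a*, -0.25 for *Hspa1b* and 0.67 for *Hsph1*. *Hsp90ab1*, a chaperone gene outside the list, was called lower (-1.29).

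Cell cycle genes were read at lower or similar levels. Of 40 cell cycle and DNA replication genes, 15 were called lower and none higher (median -1.16). *Rrm2*, ribonucleotide reductase, had 12.4 CPM against 86.3, 79.2 and 40.9 CPM (-2.40), *Tyms*, thymidylate synthase, 7.05 CPM against 33.9, 32.1 and 20.7 CPM (-2.0) and *Mcm5*, of the replicative helicase, 24.1 CPM against 124, 112 and 63.1 CPM (-1.99). *Mki67* had 119 CPM against 254, 178 and 196 CPM and was not called. The count depended on Basal replicate 3, the lowest Basal library for *Rrm2*, *Tyms* and *Mcm5*. Without it 26 of the 40 were called lower, and against Basal replicate 1 alone 28 were lower by more than 1. Among 10 cell cycle inhibitors, 4 were called higher. *Cdkn2b*, p15, had 14.9 CPM against 0.743, 0.444 and 0.425 CPM (4.74), *Cdkn1b*, p27, 123 CPM against 44.8, 47.4 and 32.6 CPM (1.58) and *Rb1* 185 CPM against 46, 39.3 and 54 CPM (2.0). *Cdkn1a*, p21, had 296 CPM against 323, 400.1 and 305 CPM and was not called.

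Lipid synthesis was higher at particular steps. Of 15 fatty acid synthesis genes 5 were called higher and 1 lower. *Scd1*, a stearoyl-CoA desaturase, had 1822 CPM against 84.5, 79.8 and 81.3 CPM (4.48), *Scd2* had 1136 CPM against 138, 143 and 99.1 CPM (3.18) and *Me1*, malic enzyme, had 144 CPM against 9.55, 10.4 and 10.6 CPM (3.81). *Fasn* and *Acaca*, the synthase and its rate-setting carboxylase, had 329 CPM against 350.3, 374 and 399 CPM and 50.9 CPM against 57.8, 70.4 and 58.6 CPM and were not called. Of 25 cholesterol genes 8 were called higher and none lower, with the late enzymes *Msmo1* (3.06) and *Dhcr7* (2.0) among them.

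Growth factor pathways were mixed. Of 29 EGF and FGF signalling and feedback genes, 11 were called lower and 6 higher. The share called higher, 20.7%, was near the background of 19.8%. The feedback phosphatases *Dusp6* (118 CPM against 715, 717 and 735 CPM, -2.61) and *Dusp5* (-2.97), the AP-1 gene *Fosl1* (-3.94), the ligands *Nrg1* (-3.51) and *Hbegf* (-2.17) and the receptor gene *Fgfr2* (35.6 CPM against 265, 250.1 and 232 CPM, -2.80) were lower. *Erbb3* (176 CPM against 13, 11.3 and 13.1 CPM, 3.82) and *Erbb2* (1.79), receptors higher in luminal cells, and the EGF family ligand gene *Btc* (3.99) were higher. *Egfr* itself was not called, with 118 CPM against 149, 186 and 204 CPM. Hydrocortisone was in the medium, and of 13 glucocorticoid targets 3 were called higher and 7 lower. *Fkbp5* had 184 CPM against 22.1, 18.7 and 20.8 CPM (3.17), *Zbtb16* 78.5 CPM against 4.56, 5.75 and 6.34 CPM (3.82) and *Tsc22d3*, GILZ, 126 CPM against 34, 30.3 and 25.1 CPM (2.09), whereas *Pdk4* (-3.91), *Angptl4* (-3.85), *Errfi1* (-2.58) and the metallothionein genes *Mt1* (-2.11) and *Mt2* (-2.17) were lower.

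Wnt pathway genes were more often lower than higher. Of 26 Wnt pathway genes, 12 were called lower and 5 higher, and 3 of the latter passed the filter in the culture alone. *Axin2*, a direct target and negative regulator, had 4.15 CPM against 33.6, 28.1 and 18.7 CPM (-2.64), and *Nkd1*, another feedback gene, had 2.96 CPM against 91.1, 119 and 64.1 CPM (-4.88). *Wif1*, a secreted Wnt inhibitor, had 4.01 CPM against 356, 304 and 305 CPM (-6.31), *Fzd10* had 0.537 CPM against 29.4, 28 and 31.5 CPM (-5.68) and *Wnt6* had 0.35 CPM against 87.4, 61.7 and 35 CPM (-7.20). *Sfrp2* (-2.67) was lower too. In the other direction *Wnt7b* had 154 CPM against 6.31, 7.91 and 5.01 CPM (4.61) and *Wnt5b* 65.4 CPM against 25.3, 33.2 and 25.3 CPM (1.24), with *Wnt7a* (4.27), *Rspo3* (2.87) and *Lef1* (1.79) at low level. Of 14 Notch pathway genes 4 were higher and 4 lower. *Notch3* (145 CPM against 19, 25.1 and 21.9 CPM, 2.73), *Nrarp* (2.41), *Heyl* (2.81) and *Notch4* (2.17) were higher, and the ligand gene *Dll4* (-1.84), *Hes5* (-2.83), *Mfng* (-3.02) and *Maml2* (-1.40) lower. The median of the Notch list was 0.32 and without Basal replicate 2 it was 0.57.

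Stress pathways other than hypoxia were mixed. The 17 NRF2 genes held 7 called higher, such as *Gsta4* (167 CPM against 26.3, 26.4 and 27.1 CPM, 2.65), and 6 called lower, such as *Srxn1* (75.9 CPM against 495, 396 and 954 CPM, -2.91) and *Txnrd1* (-2.23). Of the 15 NRF2 genes that passed the filter in a Basal library, 5 were called higher. The 20 amino acid and unfolded protein genes held 4 called higher and 4 lower (20% each), near the background of 19.8% and 17.9%. Among the higher was *Ddit4* (769.8 CPM against 239, 202 and 187 CPM, 1.89), which HIF also induces. Among the lower were *Phgdh* (-2.73), *Atf4* (-1.61) and the chaperone gene *Hspa5* (-1.45). Of 18 p53 targets 5 were higher, with *Eda2r* (2.91) and *Pmaip1* (2.44) leading, and *Plk2* (-1.31) was lower. Ribosomal protein genes, 32 of them, held no called gene, with differences from -1.0 to 0.32.

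The extracellular matrix differed in composition. Of 28 EMT factors and mesenchymal matrix genes 17 were called higher and 5 lower. In a Basal library 27 of them passed the filter, and 16 of these were called higher. Matrix metalloproteinases led. *Mmp13*, a collagenase, had 76.2 CPM against 0.106, 0.0404 and 0.155 CPM (9.18), *Mmp10*, a stromelysin, 112 CPM against 0.478, 0.121 and 0.58 CPM (8.23), *Mmp9*, a gelatinase, 80.0 CPM against 0.637, 0.283 and 0.58 CPM (7.28) and *Mmp3* 221 CPM against 1.73, 1.84 and 4.16 CPM (6.52). *Tnc*, the matrix protein tenascin-C of healing tissue, had 2476 CPM against 71.4, 135 and 74.5 CPM (4.79), and *Fn1*, fibronectin, had 1582 CPM against 132, 155 and 189.5 CPM (3.33). *Lox*, the collagen cross-linker, had 208 CPM against 3.24, 4.2 and 7.46 CPM (5.46) and *Thbs2* 557 CPM against 13.3, 14.6 and 27.5 CPM (4.99). The transcription factor genes went in different directions, with *Zeb1* (21.2 CPM against 2.44, 2.34 and 3.79 CPM, 2.91), *Zeb2* (2.68), *Twist1* (2.28) and *Snai1* (1.21) higher and *Snai3* (-5.73) lower, as was *Snai2* (-2.36) of the basal identity list. *Thbs1* (515 CPM against 4578, 5392 and 6276 CPM, -3.38), *Postn* (-1.67), *Ccn1* (-1.52) and *Mmp2* (-1.28) were lower. Of 41 collagen genes that passed, 13 were called higher and 20 lower. Of the 39 that passed in a Basal library, 11 were called higher. *Col14a1*, a fibril-associated collagen, had 8.4 CPM against 1853, 1742 and 1554 CPM (-7.66), whereas *Col5a3* (368 CPM against 8.97, 13 and 14.7 CPM, 4.94) and *Col1a1* (868 CPM against 91.1, 125 and 147 CPM, 2.87) were higher.

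Innate immune genes differed in both directions. Of 27 cytokine and chemokine genes 9 were called higher and 7 lower. The filter was passed through the Mammosphere library alone by 5 of the 27, and of the other 22 genes 6 were called higher. *Ptgs2*, cyclooxygenase 2, had 484 CPM against 69.7, 73 and 86.6 CPM (2.67), *Cxcl5* had 32.8 CPM against 0.902, 0.565 and 0.58 CPM (5.54) and the keratinocyte alarmin *Il1a* 9.22 CPM against 0.301, 0.101 and 0.29 CPM (5.21). *Cxcl14* had 119 CPM against 1727, 2364 and 1664 CPM (-4.0), and *Il24* (-3.03) and *Il6* (-2.70) were also lower. Of 27 interferon and antigen presentation genes 11 were higher, led by *Ifi44* (4.66), *Rsad2* (4.45), *Mx1* (3.28) and *Ifit3* (3.18), and 8 lower, led by the class II genes *H2-Aa* (-5.35) and *Cd74* (0.467 CPM against 12.2, 18.7 and 21 CPM, -5.06) and by *Nlrc5* (-5.0), the activator of class I genes. *H2-K1* (-1.02) and *Tap1* (-2.40) of the class I pathway were lower with it. Of the 24 interferon and antigen presentation genes that passed the filter in a Basal library, 8 were called higher.

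Skeletal muscle transcripts, which neither layer of the mammary epithelium is known to make, were present in culture at low level. Of 30 genes, 27 passed the filter, 17 of them through the Mammosphere library alone, and 26 were called higher. Of the 10 that also passed in a Basal library 9 were called higher. The list summed to 367 CPM in the Mammosphere library and 13.4, 14.1 and 16.2 CPM in the Basal libraries. *Myh3*, embryonic myosin heavy chain, had 41.6 CPM against 0.23, 0.706 and 0.232 CPM (6.78), *Myh8*, the perinatal chain, 12.3 CPM against 0.0354, 0.101 and 0.058 CPM (6.93) and *Neb*, nebulin, 28 CPM against 0.142, 0.182 and 0.348 CPM (6.81). The muscle-determining factor *Myod1* had 3.64 CPM against 0.106, 0.0404 and 0.116 CPM (4.91) and its successor *Myog* 12.8 CPM against 0.0354, 0.161 and 0.0193 CPM (7.06). *Mymk*, the fusogen myomaker, and *Chrng*, the fetal acetylcholine receptor subunit, had 0 reads in the Basal libraries and 4.88 and 5.21 CPM in culture, the latter at least 86.0-fold higher. *Actc1* (7.40) completed the leading members. Of the adult fast chains, *Myh1* and *Myh4* were called higher. They had 24.1 and 2.99 CPM in culture and Basal means of 0.259 and 0.423 CPM (TMM over all 11 libraries). *Myh2*, another adult fast chain, had 2.4 CPM against 0.849, 1.47 and 1.24 CPM and was not called. *Pax7* and *Ckm*, of satellite cells and mature fibres, stayed just below the filter at 0.443 and 0.443 CPM. With TMM over all 11 libraries, both had 0.424 CPM in culture. The highest Basal library had 0.0338 CPM for *Pax7* and 0.359 CPM for *Ckm*. All 27 were above every LP and ML library, a result favoured by the choice of genes, since 17 of the 27 had been kept for their level in the culture alone.

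Markers of other cell types differed in both directions. The antibodies of the study included CD31, CD45 and TER-119, which mark endothelial, leukocyte and erythroid cells and serve to gate them out. Of 12 fibroblast and pericyte markers 9 were called higher and none lower, and their sum was 2796 CPM in the Mammosphere library and 654, 809.8 and 959 CPM in the Basal libraries. *Col1a2* (710.0 CPM against 105, 139 and 160.0 CPM), *Pdgfrb* (156 CPM against 16.8, 27.8 and 23.6 CPM) and *Pdgfra* (61.4 CPM against 9.37, 12.2 and 12.2 CPM) were among them, while *Dcn*, decorin, had 102 CPM against 208, 164 and 209 CPM and *Rgs5*, of pericytes, 1.17 CPM against 3.56, 2.5 and 6.32 CPM, neither called. These markers moved with the mesenchymal matrix genes and with the muscle genes, and their part in those results was not tested. Of 8 endothelial markers 6 were called lower and none higher, with a sum of 18 CPM in the Mammosphere library and 68.2, 60.0 and 117 CPM in the Basal libraries. Of 12 immune markers 7 passed, 4 were higher and 1 lower. Of the 6 that passed in a Basal library, 3 were higher. *Cd68* had 24.4 CPM against 5.15, 5.87 and 6.13 CPM and *Lyz2* 11.5 CPM against 3.64, 3.79 and 3.42 CPM, whereas *Ptprc*, CD45 of all leukocytes, was near 0 at 0.28 CPM against 1.13, 0.323 and 1.7 CPM, and *Cd3g* had 0 reads in culture. The sum over the 12 was 44.1 CPM in the Mammosphere library and 14.9, 15.3 and 18.6 CPM in the Basal libraries. Adipocyte markers summed to 8.61 CPM in the Mammosphere library and 50.3, 31 and 71.3 CPM in the Basal libraries, with 2 of 6 called lower and *Adipoq* at 0.070 CPM in culture. Erythroid markers were near 0 in the 4 libraries, summing to 1.82 CPM in the Mammosphere library and 1.91, 1.19 and 3.61 CPM in the Basal libraries. Of the 4 Schwann cell and melanocyte markers that passed, 1 was called higher, 1 lower (-2.30) and 2 neither. The higher one was *Mbp* (54.9 CPM against 15.3, 11.5 and 23.3 CPM, 1.77). The 8 in the tables summed to 59.4 CPM in the Mammosphere library, most of it *Mbp*, and 22.9, 17.7 and 29.3 CPM in the Basal libraries.

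**Figure D5:**
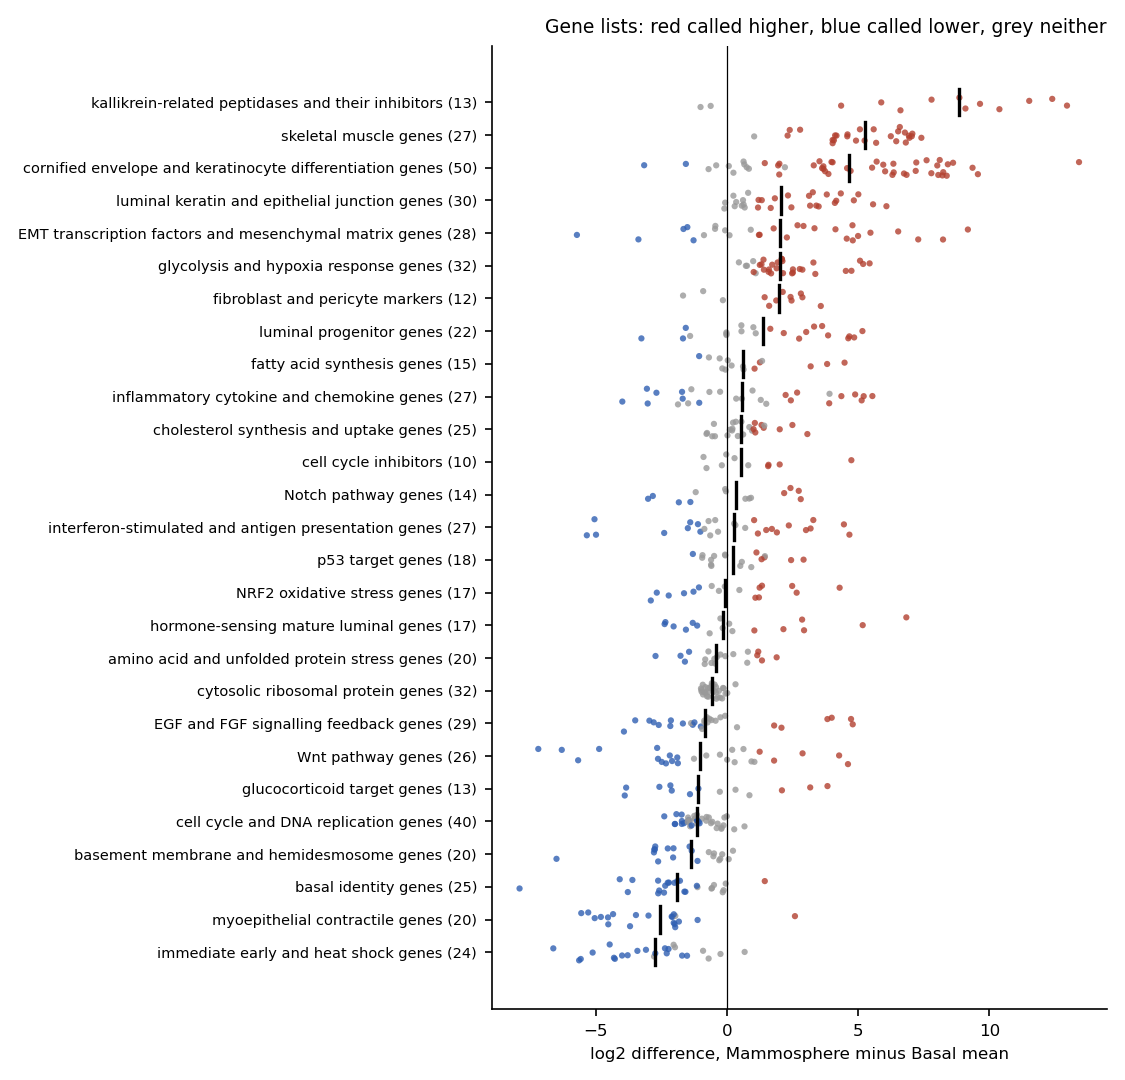
Each row is a gene list with at least 10 members over the filter (number in parentheses), each point a gene, and the x axis the log2 difference of Mammosphere minus Basal, with called genes in red (higher) or blue (lower) and black lines at the medians. The cornified and kallikrein lists reach furthest right, to 13.42 and 12.96, and the medians of the immediate early, contractile and basal identity lists lie to the left of 0.

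Ranked by size among called genes with at least 5 CPM in the higher group, all but 5 of the 15 largest upward differences were genes of cornification, kallikreins or their inhibitors and have been given. Of the others, *Gm5886*, a gene model, had 3338 reads in culture and 0 in the Basal libraries, at least 1287-fold higher. *Sdr16c6*, a short-chain dehydrogenase, had 89.6 CPM against 0.106, 0 and 0 CPM (10.51). *Pla2g2f*, an epidermal phospholipase, had 49.7 CPM against 0.0177, 0 and 0 CPM (10.11), *Cyp2b19*, a keratinocyte cytochrome, 39.4 CPM against 0.0177, 0 and 0 CPM (9.77) and *Psca* 86.1 CPM against 0.0354, 0.0404 and 0.0773 CPM (9.92).

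The 15 largest downward differences held *Krt15*, *Col14a1* and *Wnt6* and a set of genes of varied kind. *Egr4* had 0.0467 CPM against 43.8, 61.1 and 11.6 CPM (-8.51) and *Nr4a3*, an immediate early nuclear receptor, 1.03 CPM against 188, 199 and 196 CPM (-7.51). *Adamts18*, a matrix protease, had 0.817 CPM against 289.6, 289.8 and 295 CPM (-8.41). *Fmod*, fibromodulin, had 0.63 CPM against 126, 224 and 174 CPM (-7.99) and *Vwa2* 0.327 CPM against 84, 70.4 and 57.8 CPM (-7.58). *Gpr3* (-7.46), *Lrfn5* (-8.29), *Serpinb10* (-7.59) and *Iqcn* (-7.46) were among them. *Trh*, thyrotropin-releasing hormone, *Sstr3*, a somatostatin receptor, and *Glb1l3* had 0 reads in culture and means of 6.98, 6.47 and 6.97 CPM in the Basal libraries, at least 99.6-fold, 92.4-fold and 99.6-fold lower.

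By abundance per length the order of transcripts differed at the top. After *Lcn2*, the culture's next nuclear transcript was *Spp1*, osteopontin, with 5577 CPM in the Mammosphere library and 36.6, 41.4 and 37.1 CPM in the Basal libraries, or 3364 RPKM against 23.1 ± 1.6 RPKM (SD, n = 3), and a difference of 7.18. Its rank was 2 in culture and 3132 in the Basal libraries. Lysosomal cathepsins *Ctsl* and *Ctsd*, which had 1803 RPKM against 515 ± 58.9 RPKM and 1382 RPKM against 190.1 ± 12 RPKM, ranked 4 and 6. In the Basal libraries *Acta2* ranked first, at 3649 ± 684 RPKM, and its rank in culture was 661. *Actb*, cytoplasmic actin, had 1038 RPKM against 1149 ± 21.1 RPKM and *Eef1a1* 1324 RPKM against 1795 ± 99.4 RPKM, and neither was called.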

How the data were processed

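RNA-seq of mouse mammary cells was used (100 bp single-end reads in the study's methods). The authors aligned reads to mm10 with Rsubread, counted them per Entrez gene with featureCounts and deposited raw counts without normalization or filtering. How multimapping reads were treated is not given in the sources used here. Symbols and GRCm38.p6 positions came from RefSeq for 25275 genes.

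CPM were scaled by TMM over the 4 libraries (edgeR 4.0.16, R 4.3.3), with a prior count of 2 for log2 CPM. RPKM used the deposited exon lengths. With 1 Mammosphere library no test was made. On simulated counts of 14832 genes the call recovered 92 of 100 genes changed by 1.5 log2 units and 100 of 100 changed by 3, and called 52 of 14632 unchanged genes. The simulation gave all genes the same dispersion of 0.03, changed 200 genes read in the Basal libraries, and had no batch and no TMM step. The real libraries span batches and their genes differ in spread, so these shares are not error rates of the real calls. Replicates are separate samples in the labels, and nothing states that they came from separate animals, so their spread may be partly technical. Batch 1 comprised the Mammosphere library and Basal replicate 1, batch 2 the other Basal libraries. Floors of 3 reads cover counting error only, and 0.5 CPM on the TMM scale is 21.4 reads in the Mammosphere library. The filter used CPM without TMM scaling, so genes slightly below 0.5 CPM on the TMM scale could pass in that library.

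Members and gene lists were chosen with earlier results of these data known. Named genes were the 4 markers, the 15 largest called differences each way (at least 5 CPM), up to 6 called members per direction of each list, and the kept keratins. Other named genes (members not called, abundant transcripts, HOX and other families) were chosen after their values were seen. Some list members are not reported here. Promoter windows were RefSeq windows without their 50 transcribed bases. Alternatives were DESeq2 1.42.0 size factors, no scaling, TMM over 11 libraries, other filters, folds and prior counts, the fold alone, batch 1 alone, each Basal library left out and, added after seeing the data, centring on the median of all genes.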

Additional observations from a re-analysis of the deposited data

How the results depend on the processing

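With 1 culture library, no alternative measures the spread between cultures. Counts of genes called higher and lower ranged from 2401 to 3784 and from 2349 to 3373 over the alternatives that kept the fold, and were 1663 and 1339 at a log2 difference over 2. Leaving out each Basal replicate gave 3308 to 3427 higher and 2960 to 3128 lower. Without scaling the median of all genes was 0.24 in place of 0.03 and the share of higher among called genes was 61.7% in place of 52.6%. Against Basal replicate 1 alone, 3013 of 3147 and 2722 of 2836 calls kept their direction and a difference over 1. In the main setting the median was 1.37 for luminal progenitor, -0.17 for hormone-sensing and 4.64 for cornified genes. For cholesterol, fatty acid, NRF2, glucocorticoid and EGF and FGF genes it was 0.54, 0.60, -0.09, -1.10 and -0.86. For Wnt, mesenchymal matrix, cytokine, interferon, muscle and ribosomal protein genes it was -1.03, 2.02, 0.56, 0.27, 5.24 and -0.56. For immune, fibroblast, adipocyte and Schwann cell markers it was 1.11, 1.99, -2.01 and 0.33. Without a scaling factor the median was -1.69 for basal identity genes, -1.18 for basement membrane and hemidesmosome genes, 2.28 for luminal keratin and epithelial junction genes, 0.0343 for hormone-sensing mature luminal genes, 0.75 for cholesterol synthesis and uptake genes, 0.82 for fatty acid synthesis genes, 2.21 for glycolysis and hypoxia response genes, -0.65 for EGF and FGF signalling feedback genes, 0.53 for Notch pathway genes, 5.45 for skeletal muscle genes and -0.35 for cytosolic ribosomal protein genes. Within batch 1 the median was -1.30 for basement membrane and hemidesmosome genes, 0.36 for cholesterol synthesis and uptake genes, 0.34 for fatty acid synthesis genes, 0.17 for NRF2 oxidative stress genes, 2.36 for EMT transcription factors and mesenchymal matrix genes and 2.37 for fibroblast and pericyte markers. With genes over 0.5 CPM in at least 3 libraries, a filter that by construction drops genes read in the culture alone, the median was 0.00797 for hormone-sensing mature luminal genes, 2.05 for cornified envelope and keratinocyte differentiation genes, -0.57 for kallikrein-related peptidases and their inhibitors, 2.06 for glycolysis and hypoxia response genes, -1.84 for Wnt pathway genes, 0.75 for Notch pathway genes, 1.56 for EMT transcription factors and mesenchymal matrix genes, -0.62 for inflammatory cytokine and chemokine genes, -0.35 for interferon-stimulated and antigen presentation genes, 4.12 for skeletal muscle genes, -0.51 for cytosolic ribosomal protein genes and -3.69 for adipocyte markers. Of the kallikrein list, the filter on 3 libraries kept *Klk10*, *Slpi* and *Serpina3n*, so that its median was that of an inhibitor. In the main setting the median of that list was 8.85 and *Klk10* differed by 9.09. Without a filter the median was 3.65 for cornified envelope and keratinocyte differentiation genes, 8.31 for kallikrein-related peptidases and their inhibitors, 0.17 for NRF2 oxidative stress genes, -0.71 for glucocorticoid target genes, -0.0648 for Notch pathway genes, 5.04 for skeletal muscle genes, -0.0879 for immune cell markers and 0.62 for Schwann cell and melanocyte markers. With genes over 2 CPM the median was 1.90 for luminal progenitor genes, 0.0783 for hormone-sensing mature luminal genes, 5.70 for cornified envelope and keratinocyte differentiation genes, 0.39 for fatty acid synthesis genes, -1.89 for Wnt pathway genes, 0.84 for Notch pathway genes, -0.0409 for interferon-stimulated and antigen presentation genes, 5.59 for skeletal muscle genes, 1.66 for immune cell markers, -3.73 for adipocyte markers and 0.0265 for Schwann cell and melanocyte markers. With a prior count of 0.5 the median was 5.80 for cornified envelope and keratinocyte differentiation genes and 5.95 for skeletal muscle genes. Relative to the median of all genes the median of glycolysis and hypoxia response genes was 1.97. With each Basal replicate left out in turn, the median ranged from 0.24 to 0.57 for Notch pathway genes, from 0.38 to 0.64 for cholesterol synthesis and uptake genes, from -0.60 to -0.50 for cytosolic ribosomal protein genes, from 1.91 to 2.01 for glycolysis and hypoxia response genes. The cause of the differences in medians under batch 1 and under single replicates was not tested. No paired analysis was possible because there is 1 Mammosphere library, so that the batch 1 comparison is a single pair of libraries with no test. Values of low genes rest on few reads, 3 reads being 0.0700 CPM in the Mammosphere library and 0.0531 to 0.0605 CPM in the Basal libraries.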

Other observations

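Families outside the lists were looked at after the data had been seen. Of 39 HOX genes, which set position along the body axis, 20 passed the filter, 15 of them through the Mammosphere library alone, and 15 of the 20 were called higher at low level. Of the 5 that also passed in a Basal library, 1 was called higher. *Hoxc6* had 3.73 CPM against 0.0531, 0.161 and 0.174 CPM (4.57), *Hoxc10* 1.91 CPM against 0.0884, 0.242 and 0.232 CPM (3.19) and *Hoxb4* 8.94 CPM against 2.25, 2.18 and 1.47 CPM (2.19), while *Hoxb3* (17.8 CPM against 24.3, 22.2 and 15.4 CPM) and *Hoxb2* (8.4 CPM against 7.34, 5.25 and 4.58 CPM) were not called. Of 335 genes named *Zfp*, most of them C2H2 zinc finger factors, 115 were called higher and 26 lower (background 19.8% and 17.9%), with a median of 0.68 against 0.03 for all genes. *Zfp750*, a regulator of epidermal differentiation, had 27.7 CPM against 1.59, 1.88 and 1.43 CPM (4.06), and *Grhl3*, a factor of barrier formation, had 55.5 CPM against 4.07, 2.02 and 2.3 CPM (4.36). Of 53 protocadherin genes 21 were called lower and 3 higher. Of 16 KLF factors 9 were called lower and 4 higher. The 13 protein genes of the mitochondrial genome took 1.43% of the reads in culture and 2.13 ± 0.477% in the Basal libraries (SD, n = 3), and 6 were called lower.

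The 5 *Tmprss11* genes that passed the filter, serine proteases of surface epithelia, were called higher, each of them over the filter in the Mammosphere library alone. *Hmga2*, an architectural chromatin protein of embryonic cells, had 66.1 CPM against 1.27, 0.848 and 1.8 CPM (5.68). *Prdm1*, a repressor that acts in terminal differentiation of keratinocytes and B cells, had 35.9 CPM against 134, 121 and 319.8 CPM (-2.27).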
